A study of Mus musculus with 6 samples.

Results

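Cholesterol and fatty acids are built from acetyl-CoA in the cytosol, and 32 genes of that synthesis were followed here in pancreatic islets, the hormone-secreting cell clusters of the pancreas. The 32 were chosen by gene name, as a list of enzymes and regulators of the pathway, from the 47643 genes of the deposited tables. The mice were wild type (WT) or carried a transgene for the microRNA miR-203 that is specific to beta cells, the insulin-secreting cells (TG). Per the labels, all 6 mouse islet samples were from males of 10 weeks that had been fasted for 12 h. Each genotype had 3 libraries, which are numbered here within the genotype. The deposit splits them over a first table (WT 1, WT 2, TG 1, TG 2) and a second (WT 3, TG 3). The libraries were made from whole islets, so they hold RNA of alpha, delta and non-endocrine cells beside that of the cells with the transgene. Whether each library is a separate animal is not said in the labels, so a p-value here speaks of the scatter among these 6 libraries, part of which may be technical.

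The pathway starts with ATP citrate lyase (Acly), which makes cytosolic acetyl-CoA from citrate. One branch leads through mevalonate and squalene to lanosterol and cholesterol, and the other, through acetyl-CoA carboxylase and fatty acid synthase, to palmitate, which is then elongated and desaturated. Most of these genes are targets of the SREBP transcription factors. SREBP2, the product of Srebf2, mainly drives the sterol genes, and SREBP1c, from Srebf1, mainly the fatty acid genes. When sterols are plentiful, INSIG1 holds the SREBP precursors in the endoplasmic reticulum, and when sterols are low the factors are released and cleaved. In beta cells, membrane cholesterol matters for the release of insulin granules.

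The libraries held 20176456 to 27482339 counts. Reads of the Mir203 gene numbered 170, 164 and 150 in TG 1, TG 2 and TG 3, and 39, 0 and 0 in WT 1, WT 2 and WT 3, so the library labelled WT 1 was not free of them. Some libraries stood apart from their group. TG 2 had a hormone share of counts (24.0%) like those of WT 1 and WT 2 (23.9% and 24.2%), while TG 1 and TG 3 had 13.4% and 12.2% and WT 3 had 15.8%. Both libraries of the second table had many counts of Xist, the RNA of the inactive X chromosome (25145 in WT 3 and 27240 in TG 3), and at most 16 counts of Y-linked genes, which goes against the male label. The first table had at most 13 Xist counts and 5463 to 7468 Y-linked counts. Acinar markers, genes of the enzyme-secreting pancreas, summed to 3054 to 6780 CPM (counts of a gene scaled to the library size after TMM adjustment) in the first table and to 145 and 294 CPM in the second. Albumin, a liver gene, had 77.3 and 37.2 CPM in WT 3 and TG 3 and at most 0.66 CPM in the first table.

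The mature microRNA of the transgene and its matches in the synthesis genes are shown first, because the seed (bases 2 to 8, in capitals) is the part of a microRNA that pairs with target messengers. The mature sequence, from RefSeq (GRCm38.p6), lies at chr12:112130927-112130948 on the plus strand.
mmu-miR-203-3p: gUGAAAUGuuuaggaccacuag
The complement of the seed in a messenger reads CATTTCA. In the GENCODE M21 annotation, 3 of the 32 genes held it in the 3′ UTR (9.38%), against 17.3% of 13845 tested genes with a UTR, although the median UTR was longer in the 32 genes (1549 bases) than over all tested genes (1179 bases). The sites, with the match in capitals and 15 bases before it, were 1 in Lss, 2 in Nsdhl and 1 in Insig1, all on the plus strand of GRCm38, at chr10:76553938-76553959, chrX:72958106-72958127, chrX:72958329-72958350 and chr5:28077851-28077872.
Lss site: cctgccttcctgagaCATTTCA
Nsdhl first site: tgtttttccataaatCATTTCA
Nsdhl second site: gacatctttgcagctCATTTCA
Insig1 site: gaagggttctcgggtCATTTCA
Lss encodes lanosterol synthase, Nsdhl a sterol dehydrogenase and Insig1 the sterol-dependent anchor of the SREBP precursors. All 3 were fitted lower in TG, as were 1259 of the 2395 tested genes with a match. Each of the 3 steps was smaller than its standard error (0.127 for Lss, 0.167 for Nsdhl and 0.294 for Insig1). The median log2 fold change of the 3, TG over WT, was -0.10, against 0.03 for the genes of the set without a match. Over all tested genes the medians with and without a match were -0.02 and 0.00. None of the 3 passed the test (edgeR's quasi-likelihood test with Benjamini-Hochberg adjustment, adjusted p = 0.756 for Lss, 0.795 for Nsdhl and 0.911 for Insig1).

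Levels between genes were compared on the authors' FPKM, which are scaled to gene length and were normalized separately in the 2 tables. Acly had the highest level of the 32, with a mean of 396 FPKM over the 6 libraries and 249 in its lowest library, where no other of the 32 passed 69.4 FPKM in any library. The next 4 were Srebf2 (mean 38.0 FPKM), the elongase Elovl5 (37.9), squalene synthase Fdft1 (37.2) and Insig1 (33.8). These 4 spanned 23.5 to 62.1, 30.3 to 41.8, 23.2 to 69.4 and 19.7 to 45.0 FPKM over the libraries, so their order lay within the spread. Elovl5, which lengthens polyunsaturated fatty acids, had the narrowest of the 4 ranges. At the low end were the desaturase Scd1 (mean 1.09 FPKM) and farnesyl diphosphate synthase Fdps (0.589). The Fdps value is uncertain, since a readthrough gene shares 929 of its bases at 100% identity and 4 processed pseudogenes match it at 96.1% to 98.9%, so reads may be lost or split in counting. Scd2 stood at 25.1 FPKM beside its paralog Scd1, and the copies match over 623 bases at 95.5% identity. Fatty acid synthase, Fasn, stood at 12.5 FPKM, and Acaca, the acetyl-CoA carboxylase before it, at 2.48 FPKM.

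**Figure D1:**
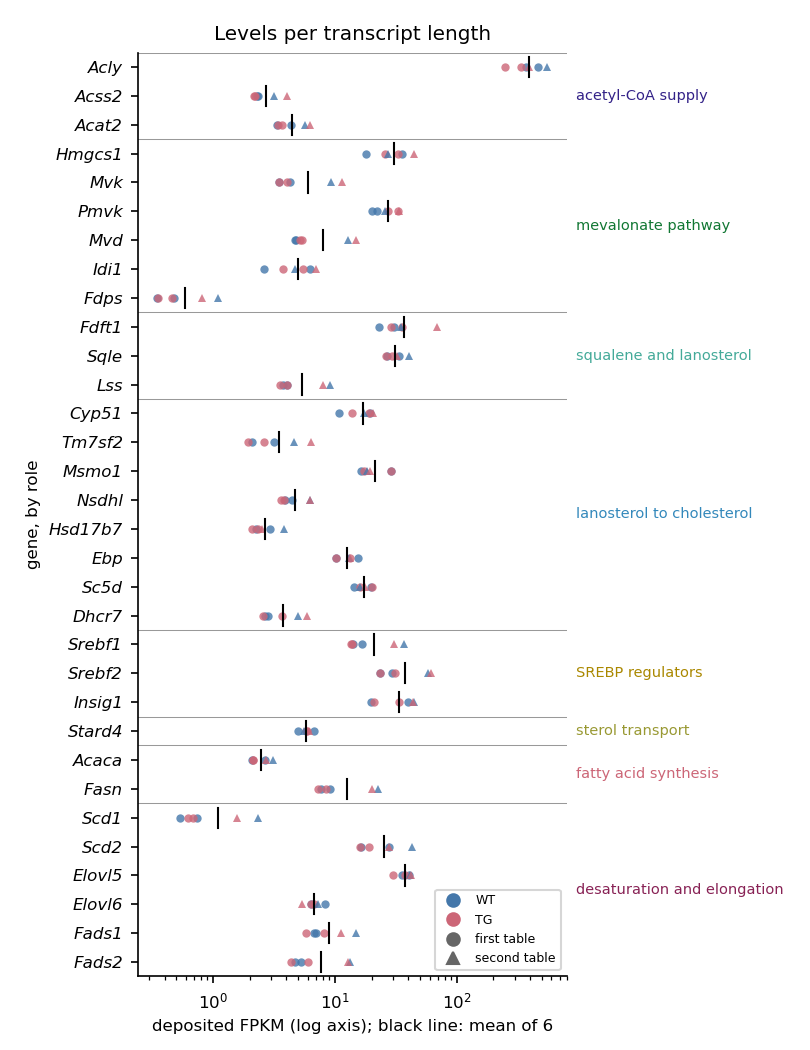
Deposited FPKM of the 32 genes by role on a log axis, 1 point per library (blue WT, red TG; circles first table, triangles second table), with the mean of 6 as a black line. Acly lies above all other genes, and for Mvk, Mvd, Fasn, Scd1 and Fads2 the triangles of both genotypes lie to the right of all circles.

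The first comparison asked whether the synthesis genes differed between TG and WT islets. None of the 32 did so at an adjusted p under 0.05 in edgeR with the table as a term, and none of all 16072 genes tested did (0%). All 32 passed the low-count filter. At an unadjusted p under 0.05, 2 of the 32 were higher (Pmvk and Fdft1) and 1 was lower (Acly) (9.38% of the 32). Over all genes 9.32% were higher and 4.81% lower by that rule, 14.1% together. By DESeq2, 3.83% of all genes were higher and 0.846% lower, and limma-voom called none. Neither called any of the 32. The fitted changes were small, with a range of -0.51 to 0.51. Within 0.25 of 0 on the log2 scale lay 26 of 32 (81.2%), against 53.7% of all genes tested. The 32 and all genes were not matched for level, so these shares are not like for like. The median was -0.05 over the 32 and -0.01 over all genes, with 15 fitted higher and 17 lower. The standard error (SE) of a log2 change ran from 0.127 for Lss to 0.34 for Idi1. Changes well past 1 SE were not called either: Pmvk, at 0.46 ± 0.137, had edgeR's adjusted p = 0.245. The smallest adjusted p of edgeR over all genes was 0.199, so larger changes than 1 SE could also be missed here. In bulk islets, fewer cells of a type and less RNA per cell cannot be told apart. Without TG 2, edgeR called 8.82% of all genes higher and 4.39% lower, and the number among the 32 was still 0, with a median of -0.04.

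**Figure D2:**
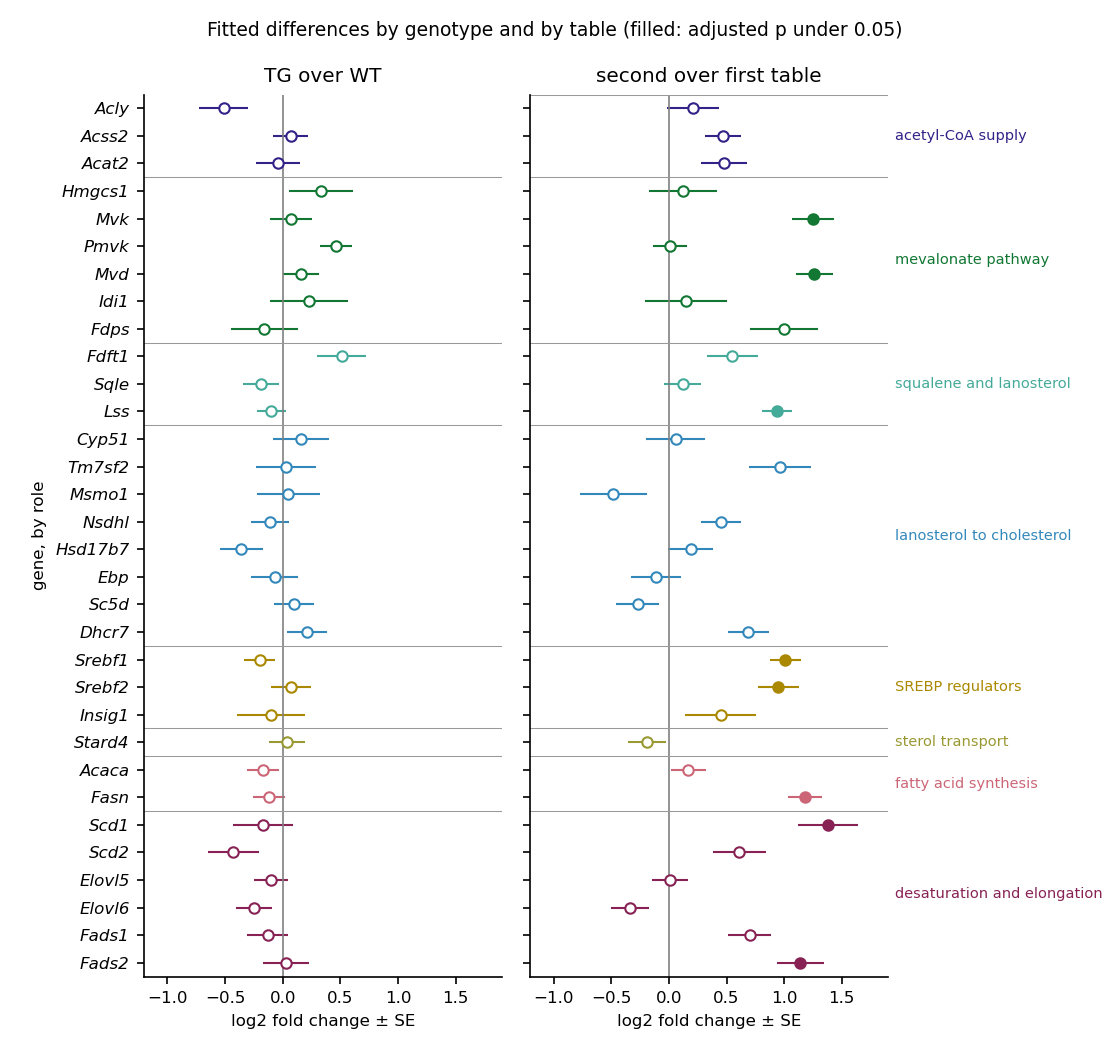
Log2 fold changes ± SE of the 32 genes, TG over WT on the left and second over first table on the right, in colours by role, with filled points for an adjusted p under 0.05. On the left, points lie between -0.51 and 0.51 and none is filled. On the right, 8 are filled, all above 0.

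The lowest fitted value belonged to acetyl-CoA supply. Acly (ENSMUSG00000020917, chr11:100476353-100528000 on the minus strand of GRCm38) had 2587 CPM in WT 1, 2071 in WT 2 and 2668 in WT 3, and 1378 CPM in TG 1, 1877 in TG 2 and 1902 in TG 3. Values for WT and TG are given in this order of libraries below. The highest TG library lay under the lowest WT library, so the groups did not overlap. The means were 2442 ± 324 in WT and 1719 ± 296 CPM in TG (SD, n = 3), and the log2 fold change was -0.51 ± 0.213 (SE), with edgeR's adjusted p = 0.353. Over the 17 alternatives it stayed between -0.65 and -0.39, with adjusted p from 0.0891 to 1. Acss2, which makes acetyl-CoA from acetate, was fitted at 0.07 and Acat2, the cytosolic thiolase, at -0.04. Both are uncertain. Acss2 overlaps Gss on the opposite strand, and no source used here states whether the counting used strand. A transcript of Acat2 matches its paralog Acat3 over 1477 bases at 97.7% identity and, in the reverse direction, Tcp1 over 445 bases at 98.7%.

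Along the mevalonate pathway, 5 of 6 genes were fitted higher in TG, with a median of 0.20, and none passed the test. Over all genes, 7723 of 16072 were fitted higher. The TG libraries differed: against the WT level of the same table, the median log2 distance of the 6 was -0.11 in TG 1, 0.22 in TG 2 and 0.35 in TG 3. Pmvk, phosphomevalonate kinase (ENSMUSG00000027952, chr3:89454541-89469013), had 40.3, 36.5 and 40.4 CPM in the WT libraries and 49.3, 59.7 and 52.5 CPM in the TG libraries. All TG libraries lay above all WT libraries. The log2 fold change was 0.46 ± 0.137 (SE), with edgeR's adjusted p = 0.245, and it ranged from 0.36 to 0.53 over the alternatives. The enzymes on either side of it, mevalonate kinase Mvk and the decarboxylase Mvd, were fitted at 0.07 and 0.16. Hmgcs1, HMG-CoA synthase and the entry to the pathway, had 120.4, 60.9 and 79.4 CPM in WT and 87.8, 111 and 132 CPM in TG. WT 1 was the highest WT library and overlapped the TG range. The log2 fold change of Hmgcs1 was 0.33 ± 0.279 with all libraries and 0.73 ± 0.196 without WT 1 (edgeR's adjusted p = 0.623 and 0.387). Idi1, the isomerase that makes dimethylallyl diphosphate, had 0.23 with all libraries and 0.72 without WT 1 (edgeR's adjusted p = 0.79 and 0.46). The fits without WT 1 gave the highest values: with each library left out in turn, Hmgcs1 ranged from 0.13 to 0.73 and Idi1 from -0.01 to 0.72. Hmgcs1 and Idi1 overlap genes on the opposite strand, and Idi1 has a processed pseudogene at 100% identity over 684 bases. Fdps, at 1.54 to 4.16 CPM, was fitted at -0.16.

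The highest fitted value belonged to squalene synthesis. Fdft1, squalene synthase, which commits farnesyl diphosphate to sterols (ENSMUSG00000021273, chr14:63145153-63177793 on the minus strand), had 92.4, 69.8 and 90.1 CPM in WT and 107, 87.3 and 182 CPM in TG. TG 3 was the highest and TG 2 lay within the WT range. The log2 fold change was 0.51 ± 0.212 (edgeR's adjusted p = 0.348) and 0.26 ± 0.22 without WT 3 or 0.26 ± 0.218 without TG 3. The end of Fdft1 overlaps Ctsb on the opposite strand by 771 bases, and Ctsb, a lysosomal protease with 628 to 1017 CPM, was fitted at -0.35. Fdft1 also has a processed pseudogene at 97.4% identity over 1249 bases. Sqle, squalene epoxidase, had 152 to 202 CPM and was fitted at -0.19. Lss was fitted at -0.10, with 46.4, 42.8 and 89.0 CPM in WT and 45.7, 39.9 and 78.4 CPM in TG, where the second table held the highest library of each genotype.

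The 8 enzymes from lanosterol to cholesterol gave no member at an unadjusted p under 0.05, and their fitted changes ran from -0.36 for Hsd17b7, a sterol ketoreductase, to 0.21 for Dhcr7, which makes cholesterol from 7-dehydrocholesterol. Hsd17b7 had 15.7, 12.2 and 17.8 CPM in WT and 11.1, 12.4 and 11.9 CPM in TG, so TG 2 lay within the WT range (edgeR's adjusted p = 0.434). Cyp51 (lanosterol demethylase), Tm7sf2 (a sterol reductase), Msmo1 (a methyl oxidase), Nsdhl, Ebp (a sterol isomerase) and Sc5d (a desaturase) were fitted between -0.11 and 0.16. The sterol carrier Stard4, which moves cholesterol between membranes, was fitted at 0.04 and had 28.4 to 39.6 CPM.

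The regulators of the pathway were called in no direction. Srebf1 (ENSMUSG00000020538, chr11:60199089-60222581) had 99.5, 82.6 and 188 CPM in WT and 79.4, 81.2 and 158 CPM in TG. Each TG library lay under the WT libraries of its own table, by small margins (log2 fold change -0.20 ± 0.132, edgeR's adjusted p = 0.52). Srebf2 (ENSMUSG00000022463, chr15:82147266-82205376) had 154, 123 and 264 CPM in WT and 164, 124 and 284 CPM in TG. The genotypes overlapped, and the log2 fold change was 0.07 ± 0.172 (edgeR's adjusted p = 0.889). Insig1 (ENSMUSG00000045294, chr5:28071363-28078662), itself a SREBP target, had 129.6, 64.1 and 126 CPM in WT and 67.4, 109 and 125 CPM in TG. The libraries of each genotype spread over nearly the same range, and the log2 fold change was -0.10 ± 0.294 (edgeR's adjusted p = 0.911). It was 0.27 without WT 1.

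Most genes of fatty acid synthesis and desaturation were fitted lower, and none was called. Fasn had 106, 88.5 and 223 CPM in WT and 97.0, 83.8 and 202 CPM in TG, a log2 fold change of -0.12 ± 0.14, and Acaca was fitted at -0.17. Acaca has a processed pseudogene at 99.2% identity over 6118 bases and is uncertain. Of 6 desaturases and elongases, 5 were fitted lower, with a median of -0.15, where 8349 of all 16072 genes were fitted lower. Against the WT level of the same table, the median log2 distance of the 6 was 0.04 in TG 1, -0.21 in TG 2 and -0.42 in TG 3. The largest fitted change was that of Scd2, the stearoyl-CoA desaturase with the higher level here. Scd2 had 160.4, 93.8 and 213 CPM in WT and 109, 91.4 and 139 CPM in TG, and WT 2 lay inside the TG range (-0.43 ± 0.221, edgeR's adjusted p = 0.422). Elovl6, the elongase of saturated chains, was fitted at -0.25, and Scd1, Elovl5 and Fads1 lay between -0.17 and -0.10. The value of Elovl6 is also uncertain. It has a processed pseudogene at 97.4% identity over 805 bases and overlaps another gene on the same strand over 1671 bases. Elovl5 had 131, 149.6 and 133 CPM in WT and 139.6, 112 and 135 CPM in TG. Fads2, the first desaturase of polyunsaturated chains, was fitted at 0.03.

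Measured library by library against the WT libraries of the same table, 2 of the 32 genes were above them in every TG library (Pmvk and Mvd) and 2 were below them (Acly and Srebf1), where 13% and 13.4% of all genes were. The effect of the transgene did not pass a test of difference between the tables for any gene (0% of 16072; 366 at an unadjusted p under 0.05, which is 2.28%), and 0 of the 32 had an unadjusted p under 0.05. The smallest among the 32 was 0.0948, for Fdft1. With 1 library of each genotype in the second table, that test borrows the spread of the first.

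Values differed more between the 2 tables than between the genotypes. In the same fit, 8 of the 32 genes were higher in the second table at an adjusted p under 0.05 and none was lower, where the shares over all genes were 5.68% and 3.85%. By the unadjusted rule, 17 were higher and 0 lower, against 15.4% and 16.7% of all genes. The median log2 difference of the 32 was 0.46, against -0.03 for all genes, and in 15 of them both libraries of the second table lay above all 4 of the first (17.9% of all genes), while none lay below (20.6%). The called genes came from both branches. They were the regulators Srebf1 and Srebf2, the mevalonate enzymes Mvk and Mvd, lanosterol synthase Lss, fatty acid synthase Fasn and the desaturases Scd1 and Fads2.

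The level of Mvk (ENSMUSG00000041939, chr5:114444269-114460591) was 12.0, 9.68, 9.67 and 11.3 CPM in the first table, in the order WT 1, WT 2, TG 1, TG 2. It was 22.7 CPM in WT 3 and 28.3 CPM in TG 3, a log2 difference of 1.25 ± 0.186 (edgeR's adjusted p = 0.0225). Mvd (ENSMUSG00000006517, chr8:122433596-122443422) had 8.80, 8.89, 9.53 and 9.84 CPM against 20.4 and 23.9 CPM (1.26 ± 0.159, edgeR's adjusted p = 0.0194). Mvd overlaps a gene on the opposite strand over 9827 bases. Its 4 first-table libraries differed from each other by far less than from the other two. Lss was higher by 0.94 ± 0.131 (edgeR's adjusted p = 0.0212) and overlaps an antisense gene. Fasn (ENSMUSG00000025153, chr11:120805846-120824547) rose from 83.8 to 106 CPM in the first table to 223 and 202 CPM in the second (1.18 ± 0.144, edgeR's adjusted p = 0.0189). Scd1 had 3.78, 2.73, 3.48 and 3.18 CPM against 10.3 and 7.02 CPM (1.38 ± 0.264, edgeR's adjusted p = 0.0318). That was the largest table difference of the 32, at the second-lowest level per length. Fads2 had 8.42, 7.44, 9.53 and 6.95 CPM against 18 and 17.7 CPM (1.14 ± 0.202, edgeR's adjusted p = 0.0282). Srebf1 and Srebf2 were higher by 1.01 ± 0.136 and 0.95 ± 0.177 (edgeR's adjusted p = 0.0212 and 0.0299), with both genotypes of the second table above all first-table libraries.

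The other members did not follow as one. Tm7sf2, Fdps, Fads1 and Dhcr7 were fitted higher by 0.96, 1, 0.70 and 0.69 with edgeR's adjusted p from 0.057 to 0.0731, and Vps51, which overlaps Tm7sf2 on the same strand, had 0.96 as well. Hmgcs1, Idi1, Sqle, Cyp51, Pmvk and Elovl5 lay between 0.01 and 0.15. Msmo1, Elovl6, Sc5d, Stard4 and Ebp were fitted lower, from -0.48 to -0.11, with none past the test, and the remaining genes of the 32 lay between 0.17 and 0.61. Mvk and Mvd thus differed by table while Pmvk, the enzyme between them, had 36.5 to 59.7 CPM in the first table and 40.4 and 52.5 CPM in the second.

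The table cannot be told apart from what else differed between its libraries: Xist and the Y-linked genes, the acinar marker sum and albumin, all given above. For an acinar covariate, the log2 CPM of the tested acinar markers were summed per library and scaled, unlike the CPM sum above. With this covariate, 0 of the 32 were called. The differences of Srebf1, Fasn, Fads2 and Lss were then 0.19, 0.23, 0.15 and 0.27. Those of Mvk and Mvd were 1.09 and 1.47, and those of Srebf2 and Scd1 turned to -0.21 and -0.90. The part of the covariate in the result was not tested further, since it separates the tables almost fully. Without WT 1, WT 2, WT 3 or TG 3 the number called was also 0, with log2 differences of the 8 genes from 0.86 to 1.48 and edgeR's adjusted p from 0.0776 to 0.281. It was 10 without TG 1 and 12 without TG 2, by edgeR. Over all genes, the number called by table was also 0 with the covariate. That number moved widely with the library left out as well, and its range is given in the last section.

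**Figure D3:**
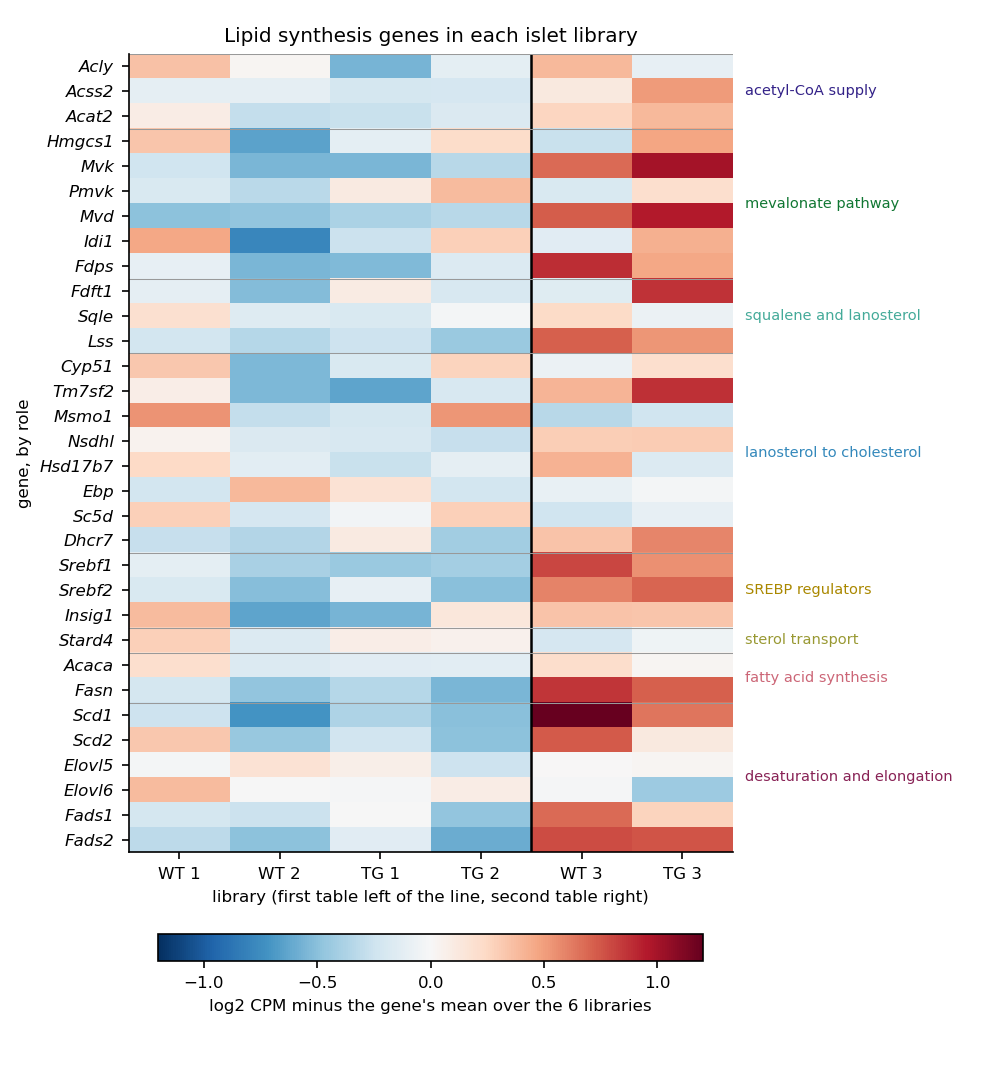
Log2 CPM of each of the 32 genes minus the gene's mean over the 6 libraries, by role, with the first table left of the line and the second right of it (red above, blue below the mean). Mvk, Mvd, Lss, Srebf1, Srebf2, Fasn, Scd1 and Fads2 are red in both libraries of the second table, and Insig1, Hmgcs1, Idi1, Cyp51 and Msmo1 are blue in WT 2 and red in WT 1.

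A separate pattern ran inside the first table, between libraries of 1 genotype. It is given with no test, and its genes, its directions and its ratio limits were picked after the values were seen. The shares over all genes beside it are thus no measure of support. WT 1 was above WT 2 in 28 of the 32 genes, against 7970 of all 16072 genes tested. TG 2 was above TG 1 in 19 of the 32, against 7656 of all genes. Both held in 17 genes (53.1%), against 28.8% of all genes tested. The median log2 ratio of WT 1 over WT 2 was 0.35 for the 32 and 0.00 for all genes, and that of TG 2 over TG 1 was 0.04 and -0.03. In 6 of the 32 genes WT 1 exceeded WT 2 by over 1.5 times and TG 2 exceeded TG 1 by over 1.25 times, which 2.26% of all genes did. They were Hmgcs1, Idi1, Cyp51, Tm7sf2, Msmo1 and Insig1. Some other genes of the sterol branch went the other way in TG: the ratio of TG 2 over TG 1 was below 1 for Fdft1 (0.816), Lss (0.874), Nsdhl (0.937), Ebp (0.761) and Dhcr7 (0.695), and for Srebf2 (0.755). Insig1 differed by 2.02 times between the WT libraries and by 1.62 times between the TG libraries, Idi1 by 2.37 and 1.46 times, and Hmgcs1 by 1.98 and 1.26 times. Msmo1 had 186 CPM in WT 1 and 185 CPM in TG 2, against 105 and 111 CPM in WT 2 and TG 1. The fatty acid genes Fasn and Acaca had 1.19 and 1.28 times between the WT libraries and 0.864 and 1.01 times between the TG libraries. The acinar marker sum was 3054 CPM in WT 1, 6780 in WT 2, 3520 in TG 1 and 4702 in TG 2. The beta-cell marker sum was 238368 CPM in WT 1, 230779 in WT 2, 56423 in TG 1 and 224372 in TG 2. The part of either in these ratios was not tested.

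**Figure D4:**
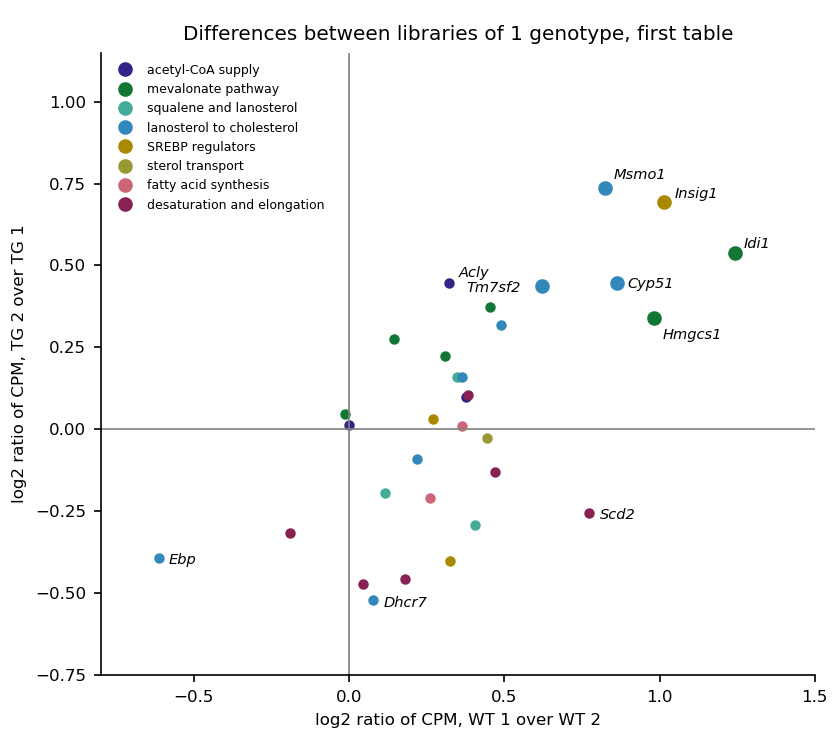
Log2 ratio of CPM between libraries of the first table for the 32 genes, WT 1 over WT 2 (x axis) and TG 2 over TG 1 (y axis), in colours by role, with larger points for the 6 genes past both ratios. Those 6 lie in the upper right, with Scd2 and Dhcr7 below the horizontal line and Ebp left of the vertical line.

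Promoters of 3 of the genes are shown because they differ in these patterns: Hmgcs1 varied between libraries of 1 genotype, and Mvk and Fasn differed by table. Each run is the 250 bases before the RefSeq start (GRCm38.p6), read on the strand of the gene, at chr13:119690101-119690350 (plus), chr5:114444019-114444268 (plus) and chr11:120824548-120824797 (minus). Capitals mark CCAAT or ATTGG, the box bound by NF-Y, a usual partner of SREBP, and TCACNCCAC or GTGGNGTGA, a form of the sterol regulatory element.
Hmgcs1 promoter: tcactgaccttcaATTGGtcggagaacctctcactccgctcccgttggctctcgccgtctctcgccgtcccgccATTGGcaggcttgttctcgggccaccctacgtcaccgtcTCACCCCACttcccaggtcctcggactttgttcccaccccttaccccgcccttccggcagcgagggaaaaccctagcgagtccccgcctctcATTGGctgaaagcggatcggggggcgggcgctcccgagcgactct
Mvk promoter: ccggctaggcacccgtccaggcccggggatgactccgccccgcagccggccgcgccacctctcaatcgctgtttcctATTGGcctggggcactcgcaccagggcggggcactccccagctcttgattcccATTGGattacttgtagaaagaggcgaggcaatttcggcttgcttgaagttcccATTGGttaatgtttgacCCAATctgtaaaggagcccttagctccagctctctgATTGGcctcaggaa
Fasn promoter: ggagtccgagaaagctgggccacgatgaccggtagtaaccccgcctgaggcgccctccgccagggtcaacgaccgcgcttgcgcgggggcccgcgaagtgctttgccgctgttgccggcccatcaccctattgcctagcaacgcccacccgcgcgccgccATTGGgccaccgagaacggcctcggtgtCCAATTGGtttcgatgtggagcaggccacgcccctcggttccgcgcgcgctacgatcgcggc
Hmgcs1 held 3 CCAAT boxes and the sterol element, Mvk held 5 CCAAT boxes on both strands, and Fasn held 3, of which 2 overlap on opposite strands. Of the 32 genes, 25 had a promoter in the table. The CCAAT box was found in 20 of them (80.0%), against 33.8% of 32851 promoters and 39.6% of tested genes. The sterol element in these letters was in 1 of 25, against 1.05% of all promoters and 1.25% of tested genes. The E-box CACGTG, a palindrome, was in 5 of 25 (20%), against 6.02% of all promoters and 9.6% of tested genes. The E-box genes were Dhcr7, Elovl5, Hsd17b7, Insig1 and Sc5d, and 1 of them, Insig1, was among the 6 genes above. A match is a string of letters in this window and not a measured site.

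Genes around the synthesis pathway were followed in 4 further lists. Among 17 tested genes of the SREBP pathway and sterol synthesis outside the 32, 1 was higher at an unadjusted p under 0.05 and 0 were lower, and the median log2 fold change was 0.06. The higher gene was Mylip, a ubiquitin ligase, at 24.0, 24.6 and 18.8 CPM in WT and 30.3, 26.8 and 35.7 CPM in TG (0.46 ± 0.18, edgeR's adjusted p = 0.323). Among those next by p-value, Stard5 was fitted at -0.51, Insig2, a paralog of Insig1, at 0.29 and Aacs, which makes acetoacetyl-CoA, at -0.25. Without TG 2, edgeR called 2 of the 17 lower (Stard5 and Tmem97) and 0 higher, where 4.39% and 8.82% of all genes were. Between the tables, Scap, the escort of the SREBP precursors, and Aacs were among the genes of this list that were higher in the second, by 1.11 and 0.75 (edgeR's adjusted p = 0.0201 and 0.0262).

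The lists of lipid export and oxidation reached farther from 0 in their fitted values. LXR targets and genes of cholesterol export or storage, 17 of them tested, had a median of 0.16, and by the unadjusted rule 5 were higher and 1 was lower. Scarb1, the HDL receptor, had 15.9, 14.9 and 20.7 CPM in WT and 63.3, 21.3 and 79.4 CPM in TG (1.62 ± 0.382, edgeR's adjusted p = 0.204). TG 2 lay just above the WT libraries and the other TG libraries far above. Abca1, the exporter of cholesterol to apolipoproteins, had 162, 151 and 137 CPM in WT and 265, 162 and 295 CPM in TG, and Abcg1, another sterol exporter, had 78.5, 79.8 and 98.3 CPM against 59.4, 60.0 and 77.3 CPM. The fitted values were 0.66 ± 0.236 and -0.39 ± 0.115 (edgeR's adjusted p = 0.289 and 0.245). Nr1h3, which encodes LXR alpha, and Pltp, a phospholipid carrier, were fitted at 0.60 and 1.13.

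Fatty acid oxidation and lipolysis, with 23 genes tested, had a median of 0.26, and by the same rule 6 genes were higher and 1 was lower. Ppara, the nuclear receptor that drives fatty acid oxidation, had 0.972, 0.836 and 0.876 CPM in WT and 8.17, 0.992 and 7.47 CPM in TG (2.60 ± 0.738, edgeR's adjusted p = 0.238). Angptl4, an inhibitor of lipoprotein lipase, was fitted at 2.86 ± 0.918, and Ppargc1a, a coactivator of mitochondrial genes, at 1.13 ± 0.242 (edgeR's adjusted p = 0.26 and 0.199). The level of Angptl4 was low, at 0.162, 0.704 and 0.525 CPM in WT (3, 16 and 12 counts). In TG it was 7.89, 0.834 and 2.16 CPM. Slc25a20, which carries acylcarnitines into mitochondria, was fitted at 1.01, and Acadl, a long-chain acyl-CoA dehydrogenase, at 0.70. Other lipogenesis and triglyceride synthesis, also with 23 genes tested, had a median of 0.06, with 2 genes higher and 1 lower by that rule. Those past it were Elovl4, for very long chains (0.96), Mid1ip1, an activator of acetyl-CoA carboxylase (0.39), and Mlx, the partner of ChREBP (-0.50). Next by p-value, and not past the rule, came Elovl2 (0.37) and Dgat2 (1.05). Dgat2 had 4.59, 7.39 and 6.92 CPM in WT and 19.3, 4.56 and 15.6 CPM in TG. The share of genes past the unadjusted rule in either direction was 35.3% for export, 30.4% for oxidation, 13% for other lipogenesis and 5.88% for the other SREBP genes, beside 14.1% of all genes. DESeq2 called Scarb1, Elovl4, Angptl4, Ppara, Ppargc1a and Slc25a20 higher, where it called 3.83% of all genes higher. Without TG 2, edgeR called 7 of 23 oxidation genes higher and 1 lower, 5 of 20 export genes higher and 0 lower, and 5 of 23 genes of other lipogenesis higher (Dgat2, Elovl4, Lpin1, Mid1ip1 and Plin2) and 1 lower (Mlx). It called 8.82% of all genes higher and 4.39% lower in that fit.

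**Figure D5:**
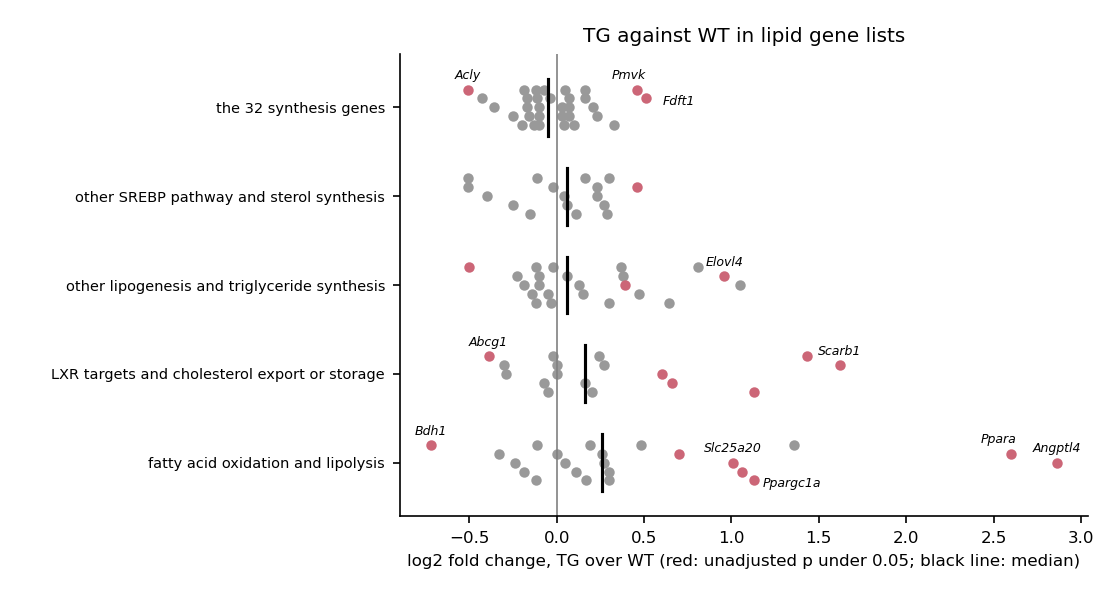
Log2 fold change, TG over WT, of each tested gene (points) in the 32 synthesis genes and in 4 lists around them, with the median as a black line and red points for an unadjusted p under 0.05. The synthesis genes lie within 0.51 of 0, while Ppara and Angptl4 lie at 2.60 and 2.86.

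Markers of other cell types were read beside these values, and none of them passed edgeR's test by genotype (smallest adjusted p = 0.199). Beta-cell markers summed to 117163 to 238368 CPM in WT and 54720 to 224372 CPM in TG, with all 10 detected, and TG 2 was inside the WT range. Their median log2 fold change was -1.07. Delta and PP cell markers summed to 8368 to 9578 CPM in WT and 13236 to 36371 CPM in TG, and all 6 were fitted higher. Duct cell markers summed to 687 to 1044 CPM in WT and 1487 to 1950 CPM in TG, and all 7 tested were fitted higher. Hepatocyte markers summed to 924 to 1050 CPM in WT and 1402 to 1939 CPM in TG, most of it from Ttr, which islets also express. Of the 6 hepatocyte markers tested, 5 were fitted higher and 1, albumin, lower (-0.99). Cyp2e1 and Ahsg, which were not tested, had 6.22 and 8.97 CPM in WT 3 and 2.91 and 4.28 CPM in TG 3. For these 3 lists the TG libraries lay above all WT libraries. In every other marker list the WT and TG ranges overlapped. Alpha-cell markers, for one, summed to 18364 to 26966 CPM in WT and 22286 to 47375 CPM in TG. Over all genes, 7723 of 16072 were fitted higher.

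Markers of stellate cells and fibroblasts summed to 13.8 to 70.0 CPM in WT and to 141, 19.6 and 121 CPM in TG, so TG 1 and TG 3 lay above the WT range and TG 2 inside it. In the beta-cell sum, TG 1 and TG 3 lay below the WT range. The median of the 8 was 1.94. Of 12 adipocyte markers, Lep and Adrb3 were at 0 in all 6 libraries and 7, with those included, were under 1 CPM in all. The summed level of the 12 was 201 to 330.2 CPM in WT and 104 to 235 CPM in TG, most of it from Lpl (68.2 to 298 CPM), which islets also express. Of the 4 adipocyte markers tested, 2 were fitted higher in TG and 2 lower, with a median of 0.03. The higher ones were Fabp4, at 0.28, and Cidea. Cidea, a lipid-droplet protein, had 0.972, 0.704 and 0.306 CPM in WT and 33.2, 1.55 and 9.63 CPM in TG, where every TG library lay above all WT libraries (4.54 ± 1.07, edgeR's adjusted p = 0.204). The part of these cell types in the fitted values of the lipid genes was not tested.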

How the data were processed

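The authors deposited raw counts per gene and FPKM, the latter normalized separately in each of the 2 tables. Per the labels, RNA was extracted with TRIZOL and 3 µg per sample went into a NEBNext Ultra kit. The submitters' processing notes name CASAVA 1.8, HISAT2 and the build GRCm38 (mm10). Counter, strand setting and annotation release: not given in the sources used here. Gene names, lengths and coordinates came from the deposited annotation.

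Counts of both tables were joined on gene ID, and 29725 genes had any count. The test was edgeR's quasi-likelihood F-test (version 4.0.16, R 4.3.3) with table and genotype as terms, after filterByExpr and TMM, with Benjamini-Hochberg adjustment over 16072 genes and a threshold of 0.05. Dividing the size of a log2 fold change by the root of its F gave the SE. Where only 1 library of a genotype was left in a table, its variation was assumed to equal that of the rest. The fit was tested on simulated counts. The most similar libraries, WT 1 and TG 2, still differed beyond sampling noise (chi-square per degree of freedom 31.6, 13065 genes).

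Alternatives were DESeq2 1.42.0, limma-voom (limma 3.58.1), other filters, scalings and terms, and leaving out each library. Near-identical copies were sought with blastn 2.17.0 at 95% identity over at least 200 bases in GENCODE M21 transcripts. The 32 genes and the other lists were chosen with earlier results of these data known. All 32 are accounted for. Values per library are given for Srebf1, Srebf2, Insig1, those at an unadjusted p under 0.05 by genotype, those called by table and the 5 highest by mean FPKM. From the other lists, up to 5 genes with the smallest p-values are named, and some genes are not reported here. Per-library values beyond these were picked after they were seen.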

Additional observations from a re-analysis of the deposited data

How the results depend on the processing

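None of the 32 genes passed the threshold by genotype under the 17 alternatives, and 16 of the 32 kept the sign of their log2 fold change in all of them, read to 2 decimals. Elovl5 came to 0.00 without TG 2, and the other 15 turned sign at least once. Over all genes, the calls went from 0 to 616 higher and 136 lower with DESeq2 and to 1300 higher and 372 lower without the low-count filter. Leaving out 1 library gave 0 to 1461 higher and 0 to 727 lower, with the highest counts without TG 2. The median of the 32 ranged from -0.094 to 0.097 without 1 library, and was 0.097 without WT 1. In the first table alone, the sign turned for Acss2 (-0.10), Mvk (-0.05), Tm7sf2 (-0.20), Stard4 (-0.01), Scd1 (0.04) and Fads1 (0.02), and with the acinar covariate for Insig1 (0.05). Without 1 library, values that included both signs were Acat2 -0.13 to 0.11, Acss2 -0.10 to 0.13, Cyp51 -0.03 to 0.47, Ebp -0.20 to 0.14, Fads1 -0.32 to 0.02, Fads2 -0.12 to 0.13, Idi1 -0.01 to 0.72, Insig1 -0.32 to 0.27, Msmo1 -0.18 to 0.34, Mvk -0.06 to 0.22, Sc5d -0.02 to 0.27, Scd1 -0.35 to 0.04, Srebf2 -0.05 to 0.18, Stard4 -0.06 to 0.20 and Tm7sf2 -0.20 to 0.29. Between the tables, 913 genes were higher and 619 lower, against 1788 and 1641 with DESeq2, 2047 and 1635 without the filter, and 0 and 0 with the acinar covariate. Without 1 library these were 2 to 1875 and 4 to 1078. Of the 32, 8 were higher, 12 with DESeq2, 14 without the filter, 0 with the covariate and 0 to 12 without 1 library. With the covariate, Srebf2 had -0.21 and Scd1 -0.90. The test of a different effect of the transgene between the tables gave 0 to 3 genes higher and 0 to 6 lower without 1 library, none of them among the 32. The causes were not tested. The acinar covariate, the bias-adjusted fit and the left-out libraries for the contrasts by table were added after seeing the data. With 3 libraries of each genotype, an SE of 0.127 to 0.34 on the log2 scale limits what could be seen. No paired analysis was possible because the labels give the 2 genotypes no shared replicate numbers.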
